A study of Mus musculus with 6 samples.

Results

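The genes of the mitochondrial ribosome were examined in bone marrow-derived macrophages (BMDMs) treated with LPS, an endotoxin of Gram-negative bacteria. The members were the rows of the deposited table whose symbol began with Mrpl or Mrps, followed by a number and at most 1 letter, with at least 10 counts in 3 or more libraries. All 78 rows with such a symbol met the count rule, of 52550 genes in the table and 25239 genes with any count. No difference between the groups was used to choose them. All 78 also passed the filter on low counts and were tested.

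The libraries came from 2 groups of 3 samples of C57BL/6 mice, which the study describes as biological replicates. GIT1 CKO BMDMs came from GIT1 fl/fl; Lyz2-Cre mice, in which Cre driven by Lyz2 deletes the floxed Git1 gene in myeloid cells. The controls, labelled GIT1 CWT, came from mice that the study's methods describe as floxed without Cre. The 2 groups thus also differ in the Cre allele, and the sources used here give neither the age or sex of the marrow donors nor the exons that Cre removes. Bone marrow cells of both groups were turned into macrophages by 7 days of culture in 25 ng/ml M-CSF, a macrophage growth factor, and were then given 100 ng/ml LPS. No untreated samples were analysed here, so the values say nothing about the response to LPS itself.

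Mitochondria carry their own ribosomes, which translate the few membrane proteins of the respiratory chain and ATP synthase that mitochondrial DNA encodes. The RNA of this ribosome is mitochondrial, whereas all of its proteins are encoded in the nucleus, made in the cytosol and imported. Some of these proteins have a counterpart at the same place in the bacterial ribosome, and others were gained by mitochondria. Macrophages given LPS are known to shift from respiration to glycolysis, and the question that the comparison addresses is whether the genes of the mitochondrial ribosome differed in level between GIT1 CKO and GIT1 CWT BMDMs.

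Of the 78 genes, 26 encode proteins of the small subunit and 51 proteins of the large subunit, and Mrps36 encodes a protein of the 2-oxoglutarate dehydrogenase complex rather than of the ribosome. Mrps18a and Mrps30 are named for the small subunit, but their proteins sit in the large subunit, where they are counted here. Of the 77 ribosomal members, 45 were listed with a bacterial counterpart, and 32 were counted as particular to mitochondria. The genes lie on 17 chromosomes, with 11 of them on chromosome 11 and 0 on chromosome X or Y.

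Total counts per library ran from 61895190 to 157485640, and the 3 GIT1 CKO libraries were all deeper than the 3 GIT1 CWT libraries. GIT1 CWT replicate 2 stood apart from the rest and was the highest or the lowest of the 6 libraries in 66.1% of the 16287 genes tested, so values without it are given beside the main results on the members. Git1 itself was at 73.0 to 76.1 CPM (its counts scaled to a library of fixed size) in GIT1 CKO and at 70.0 to 102 CPM in GIT1 CWT BMDMs, a count over the whole gene that does not check the deletion. Macrophage markers summed to 14370 to 14790 CPM in GIT1 CKO and to 13330 to 14450 CPM in GIT1 CWT BMDMs, with 0 of 9 at 0. The markers of neutrophils, T cells and erythroid cells summed to less than 2 CPM in every library, with 2 of 9, 1 of 5 and 1 of 6 at 0 throughout. Those of fibroblasts summed to 33.4 to 39.6 CPM in GIT1 CKO and to 27.1 to 33.4 CPM in GIT1 CWT BMDMs, those of B cells, nearly all Cd79b, to 17.8 to 19.95 and to 12.7 to 15.4 CPM, and those of endothelial cells to 46.3 to 49.5 and to 46.1 to 58.4 CPM. Of these lists only Pecam1, a marker of endothelial cells, was called by edgeR (log2 fold change 1.10, adjusted p = 0.0162). Of the 4 endothelial markers tested, 1 was below 0, Vwf, with a log2 fold change of -0.67 (edgeR adjusted p = 0.0962). The part of these lists in the results was not tested. Y-linked genes summed to 0 to 0.0254 CPM in GIT1 CKO and to 26.1 to 79.3 CPM in GIT1 CWT BMDMs. Xist was at 1047 to 1135 and at 223 to 590 CPM, so the sex of the donors and the genotype cannot be told apart. Each GIT1 CWT library held both Y-linked RNA and Xist, and whether it mixed cells of male and female donors was not tested.

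The promoters of the 3 genes with the lowest p in the comparison are shown here because motifs of factors known to drive nuclear genes for mitochondrial proteins were searched in them. Each run is the 250 bases before the start site that RefSeq gives on GRCm38.p6, written from 5′ to 3′ on the strand of the gene, and capitals mark the motif found. Mrpl9 lies on the plus strand with the window chr3:94443086-94443335, Mrps21 on the minus strand with the window chr3:95871515-95871764, and Mrps22 on the minus strand with the window chr9:98601680-98601929.
Mrpl9: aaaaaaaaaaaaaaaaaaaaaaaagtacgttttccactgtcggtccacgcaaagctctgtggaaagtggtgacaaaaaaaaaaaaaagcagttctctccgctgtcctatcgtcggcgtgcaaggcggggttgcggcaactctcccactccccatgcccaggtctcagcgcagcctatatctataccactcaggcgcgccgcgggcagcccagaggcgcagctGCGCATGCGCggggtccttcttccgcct
Mrps21: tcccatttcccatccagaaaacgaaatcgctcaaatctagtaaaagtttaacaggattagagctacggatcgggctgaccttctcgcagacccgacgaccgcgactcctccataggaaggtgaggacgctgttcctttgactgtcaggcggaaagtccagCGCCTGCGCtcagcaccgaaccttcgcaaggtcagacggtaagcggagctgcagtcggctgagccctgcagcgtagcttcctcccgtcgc
Mrps22: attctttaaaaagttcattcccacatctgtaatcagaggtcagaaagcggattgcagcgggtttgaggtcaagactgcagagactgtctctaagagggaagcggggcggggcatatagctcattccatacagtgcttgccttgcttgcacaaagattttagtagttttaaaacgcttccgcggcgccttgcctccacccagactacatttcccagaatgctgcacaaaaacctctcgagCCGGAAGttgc
The motif in the windows of Mrpl9 and Mrps21 was that searched for NRF1 (GCGCANGCG, with N for any base), a factor of nuclear genes for respiratory proteins, and the motif in the window of Mrps22 was that searched for the ETS family with GABP (CCGGAAG). In Mrpl9 the NRF1 motif was found on both strands, with 1 base of offset between the 2 matches.

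RefSeq windows of 250 bases before to 50 bases after a start site were matched by symbol to 69 of the 78 members, which have 75 windows. The ETS and GABP motif was in 34.7% of the windows of members, against 16.8% of the 13514 windows of genes tested and 8.86% of all 32851 windows. The NRF1 motif was in 21.3%, 12.6% and 6.25% of them, and ATGGCGG, the motif searched for YY1, was in 17.3%, 7.58% and 4.05%. With the 50 bases after the start site, which the runs shown above leave out, Mrpl9 also held the YY1 motif and Mrps21 the ETS and GABP motif. The E-box CACGTG, which MYC and other factors bind, was in 9.33% of the windows of members and in 9.66% of those of genes tested. Both strands were searched, and 64% of the windows of members held at least 1 of the 4 motifs, against 37.5% of those of genes tested. The median GC content was 58.67% in the windows of members and 60.33% in those of genes tested. Such matches describe letters in a window and not binding in these cells.

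The level per length of each gene was taken as CPM per kb of exon (RPKM). The median over the 78 genes was 6.73 RPKM, with quartiles of 4.21 and 12.97, against a median of 3.23 RPKM over the genes tested. The lowest and the highest gene differed 29.9-fold, although the ribosome holds 1 copy of most of these proteins. The lowest was Mrpl53, whose value is uncertain, as given below. Length was the union of exons, which for Mrps10 is 8079 bases against 4090 in its longest transcript, and its part in the spread was not tested. Genes of the large subunit had a median of 9.06 RPKM and genes of the small subunit a median of 5.25 RPKM.

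Mrps15, a protein of the small subunit with a bacterial counterpart, had the highest level at 31.8 to 36.9 RPKM over the 6 libraries. Mrps21, also of the small subunit, ran from 18.7 to 53.6 RPKM and Mrpl34, a small protein of the large subunit, from 26.6 to 38.8 RPKM, so the ranges of the top 3 genes overlapped. The lowest levels per length were those of Mrps10, of the small subunit, at 1.09 to 1.47 RPKM, Mrpl47, of the large subunit, at 0.809 to 1.86 RPKM, and Mrpl53, of the stalk of the large subunit, at 0.164 to 1.52 RPKM. The value of Mrpl53 is uncertain, since 88.0% of its exon bases lie in a second gene model on the same strand, Gm42688.

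**Figure D1:**
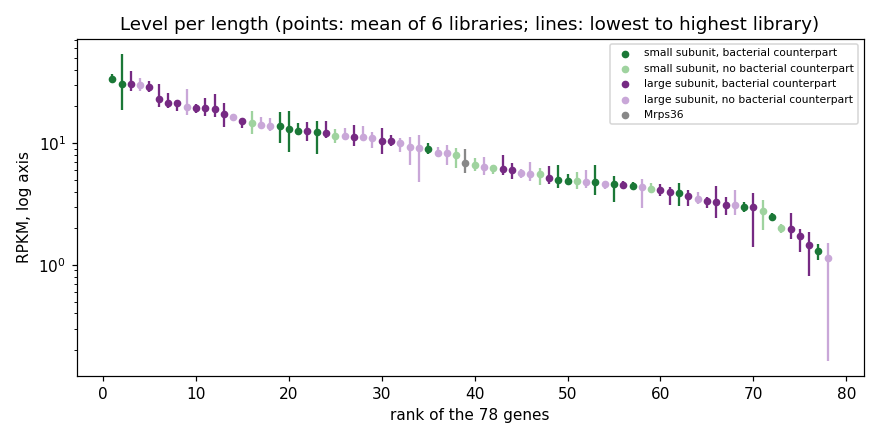
Level per length of the 78 genes in RPKM on a log axis, ordered from the highest to the lowest mean of the 6 libraries. Points give the mean and lines run from the lowest to the highest library. Colours mark the subunit and whether a bacterial counterpart was listed. The levels fall from 33.7 RPKM for Mrps15 to 1.13 RPKM for Mrpl53, and the longest line is that of Mrpl53.

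None of the 78 genes passed the test between GIT1 CKO and GIT1 CWT BMDMs (edgeR's quasi-likelihood test, adjusted p under 0.05 over all genes tested). In that test 0 members were called higher, with 0.485% of all genes tested called higher, and 0 were called lower, with 0.27% of all genes tested called lower. Few calls were made in this comparison over the whole table, 123 genes or 0.755%. At an unadjusted p under 0.05 there were 4 members, or 5.13%, against 17.5% of the genes tested, namely Mrps22 and Mrps6 on the higher side (9.06% of the genes tested) and Mrpl9 and Mrps21 on the lower side (8.45%). The study's own threshold, more than a 1.5-fold difference at an unadjusted p under 0.05, was met by 0 members on the higher side (6.48% of the genes tested) and by 1 member, Mrps21, on the lower side (2.14%). Other tools called 0 members with limma-voom, which called 0.896% of the genes tested, and 1 member, Mrpl9, with DESeq2, whose calls on the lower side took in 2.75% of the genes tested. In bulk samples, fewer cells of a type and less RNA per cell cannot be told apart.

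The fold changes of the members were small and lay close together. The median log2 fold change, GIT1 CKO over GIT1 CWT, was -0.04 over the 78 genes and 0.01 over all genes tested, and 46 members were below 0, or 59.0%, against 49.1% of the genes tested. This excess of negative values rested on GIT1 CWT replicate 2, without which the median was 0.03 and 34 members were below 0, or 43.6%, against 46.2% of all genes. With any of the other 5 libraries left out, 46 to 48 members were below 0. The log2 fold change was within 0.5 of no change in 76 of 78 members (97.4%), against 74.6% of the genes tested. The 2 members outside were Mrps21 and Mrpl47. For 53 members (67.9%, against 33.6% of the genes tested) the whole 95% interval lay within a 1.5-fold change in either direction, so a larger change of these genes was outside the interval. For the other 25 the interval reached further, up to 2.09 on the log2 scale for Mrpl53, and a change of 1.5-fold was not excluded by the data for them. The lower quartile of level was 4.21 RPKM in the members and 0.61 RPKM in the genes tested. Genes of like level were not set apart for the shares of 74.6% and 33.6%.

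**Figure D2:**
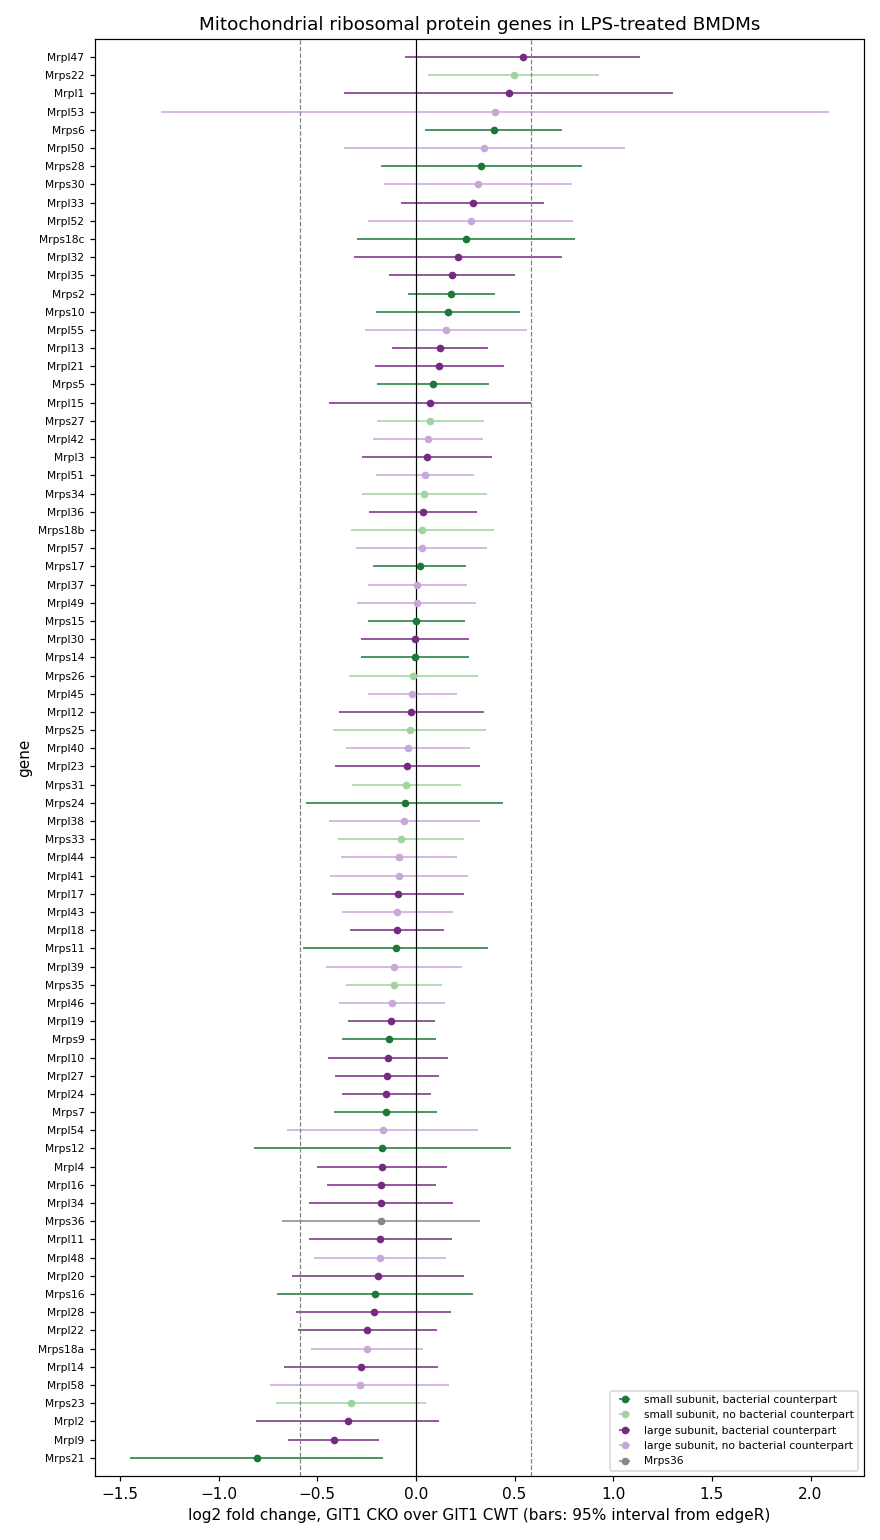
Log2 fold change of each of the 78 genes, GIT1 CKO over GIT1 CWT BMDMs (3 libraries each), on the horizontal axis with 95% intervals from edgeR, ordered by value and coloured by subunit and by bacterial counterpart, with dashed lines at a 1.5-fold change. Of the 78 intervals, 74 include 0, and the 4 that do not are those of Mrps21, Mrpl9, Mrps22 and Mrps6.

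Mrps21 (ENSMUSG00000054312.6, chromosome 3, 95862634 to 95871519 on the minus strand, GRCm38), whose protein has a bacterial counterpart in the small subunit, had the most negative fold change. The GIT1 CKO libraries (replicates 1, 2 and 3, in that order here and below) gave 15.3, 13.8 and 20.2 CPM, relative to TMM-scaled totals as all CPM below, and the GIT1 CWT libraries gave 26.04, 39.6 and 20.7 CPM. The groups did not overlap, but the highest GIT1 CKO library and the lowest GIT1 CWT library were nearly level, and GIT1 CWT replicate 2 was far above the other 2 of its group. The log2 fold change was -0.81 ± 0.268 (SE, edgeR adjusted p = 0.215). Without GIT1 CWT replicate 2 the log2 fold change was -0.48 (adjusted p = 0.254 from edgeR) and Mrps21 no longer met the study's threshold, as was also the case without GIT1 CKO replicate 1 or 2.

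Mrpl9 (ENSMUSG00000028140.13, chromosome 3, 94443318 to 94451130 on the plus strand), a protein of the large subunit next to the base of its L1 stalk in bacteria, was the member with the lowest p. Its level was 29.2, 28.2 and 29.9 CPM in GIT1 CKO and 36.4, 39.8 and 40.4 CPM in GIT1 CWT BMDMs. The groups were clearly apart and the libraries within each group close together, GIT1 CWT replicate 2 included. The log2 fold change was -0.42 ± 0.0960 (SE), with p-values from edgeR of 0.00372 before and 0.127 after adjustment. It passed the threshold with DESeq2 (-0.42, adjusted p = 0.00821), without GIT1 CWT replicate 1 (-0.46, adjusted p = 0.0438 from edgeR, where 1.79% of genes were called lower) and after removal of the relation between GC content and level in each library (-0.48, adjusted p = 0.0485 from edgeR, where 2.27% of genes were called lower). Without GIT1 CWT replicate 2 the log2 fold change was -0.38 (adjusted p = 0.087 from edgeR). Mrpl9 did not pass there or under the other alternatives. Its adjusted p was 0.111 from limma-voom, and from edgeR 0.348 with the replicate block and 0.492 without GIT1 CKO replicate 2. Mrpl9 shares 5.81% of its exon bases with Oaz3 on the other strand, and the sources used here do not say whether strand was used in counting.

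Mrps22 (ENSMUSG00000032459.9, chromosome 9, 98588730 to 98601660 on the minus strand) encodes a protein of the small subunit that bacteria lack, and variants of it cause mitochondrial disease in humans. Its level was 13.6, 13.4 and 12.0 CPM in GIT1 CKO and 11.6, 7.65 and 8.35 CPM in GIT1 CWT BMDMs. All GIT1 CKO libraries were above all GIT1 CWT libraries, with GIT1 CWT replicate 1 just below them. The log2 fold change was 0.50 ± 0.182 (SE, edgeR adjusted p = 0.243). Without GIT1 CWT replicate 1 it was 0.70 (adjusted p = 0.0394 from edgeR), in a comparison in which 4.99% of genes were called higher, and without GIT1 CWT replicate 2 it was 0.40 (adjusted p = 0.262 from edgeR).

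Mrps6 (ENSMUSG00000039680.9, chromosome 16, 92058270 to 92112227 on the plus strand), of the small subunit, was at 6.12, 6.97 and 7.18 CPM in GIT1 CKO and at 5.54, 4.63 and 5.25 CPM in GIT1 CWT BMDMs. The groups did not overlap, and the log2 fold change was 0.39 ± 0.146 (SE, edgeR adjusted p = 0.245), and 0.35 without GIT1 CWT replicate 2. Its exons share 10.4% of their bases with Slc5a3 on the same strand, so reads of the 2 genes may not be told apart there.

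**Figure D3:**
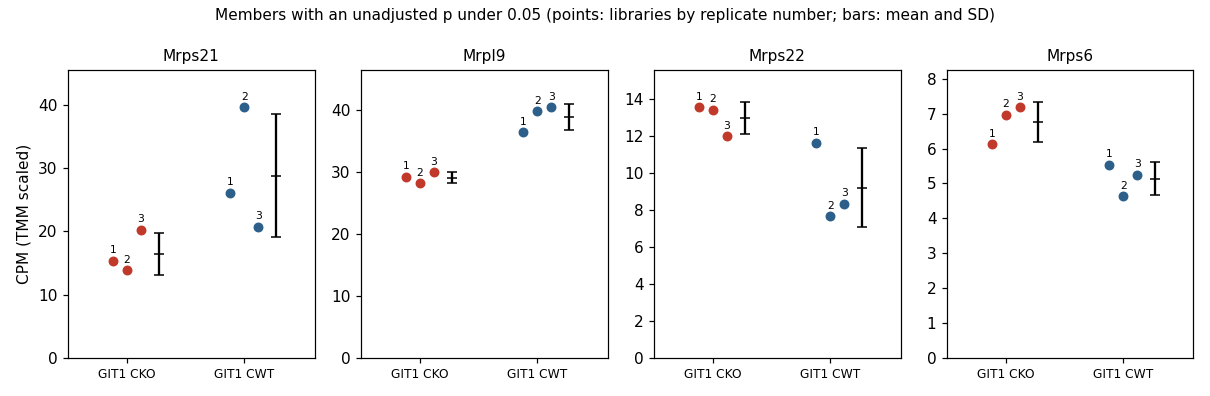
CPM relative to TMM-scaled totals of the 4 genes with an unadjusted p under 0.05, with a point for each library numbered by replicate and bars for the mean and SD of 3 libraries. Mrps21 and Mrpl9 are lower and Mrps22 and Mrps6 higher in all GIT1 CKO libraries, and GIT1 CWT replicate 2 of Mrps21 lies at 39.6 CPM, far above the other 2 of its group.

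In 5 members all GIT1 CKO libraries were above all GIT1 CWT libraries, which was 6.41% of the members against 13.6% of the genes tested. They were Mrps22 and Mrps6 together with Mrpl13, Mrpl33 and Mrps2. In 6 members, or 7.69% against 15.1% of the genes tested, all GIT1 CKO libraries were below, namely Mrps21 and Mrpl9 together with Mrpl19, Mrpl24, Mrps9 and Mrps18a. Of these, Mrpl19 shares 36.0% of its exon bases with Gcfc2 and Mrpl24 shares 26.3% with Rrnad1, each on the other strand. The groups of the other 67 members overlapped.

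The remaining members at either end of the order of fold changes had overlapping groups and wide intervals. Mrpl47, whose bacterial counterpart sits at the exit of the peptide tunnel, had the highest log2 fold change at 0.54 ± 0.249 (SE, edgeR adjusted p = 0.315), with 6.84, 8.24 and 7.99 CPM in GIT1 CKO and 6.90, 3.57 and 5.37 CPM in GIT1 CWT BMDMs. Its exons share 13.9% of their bases with Ndufb5 and 10.2% with Actl6a, which lie on the other strand and hold more counts than Mrpl47. Mrpl1, of the L1 stalk, was at 15.6, 15.1 and 13.8 CPM and at 16.7, 5.97 and 9.47 CPM, with a log2 fold change of 0.47 ± 0.348 (SE). In both genes GIT1 CWT replicate 1 was above at least 1 GIT1 CKO library and GIT1 CWT replicate 2 was the lowest of the 6 libraries. Their log2 fold changes depended on these 2 libraries. That of Mrpl47 was 0.35 without GIT1 CWT replicate 2 and 0.78 without GIT1 CWT replicate 1. That of Mrpl1 was 0.21 and 0.94, and 0.16 with the GC trend removed. At the other end, Mrpl2, which lies near the catalytic centre of the large subunit, had a log2 fold change of -0.35 ± 0.194 (SE) and Mrps23, a small-subunit protein that bacteria lack, of -0.33 ± 0.159 (SE). Mrpl58, a peptidyl-tRNA hydrolase built into the large subunit that is known to free stalled ribosomes, had one of -0.28 ± 0.190 (SE). Without GIT1 CWT replicate 2 these 3 values were -0.21, -0.26 and -0.09, and without GIT1 CWT replicate 3 they were -0.47, -0.20 and -0.42. In the comparison of all libraries the lowest adjusted p among these 5 genes was that of Mrpl47.

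The fold changes of both subunits were centred near 0. The median log2 fold change was -0.01 over the 26 genes of the small subunit, 14 of them below 0, and -0.06 over the 51 genes of the large subunit, 31 of them below 0. It was -0.06 over the 45 members with a bacterial counterpart and -0.02 over the 32 without. These signs turned without GIT1 CWT replicate 2. Without it the median was 0.08 over the small subunit, with 9 of 26 below 0, and 0.0009 over the large subunit, with 25 of 51 below 0. It was then 0.0009 over the members with a bacterial counterpart and 0.08 over those without. The median of the small subunit was also above 0 without GIT1 CKO replicate 2 or GIT1 CWT replicate 3, at 0.01 in each case. With all libraries kept it was 0.03 with total counts only, 0.03 without a filter and 0.001 with the GC trend removed. In the same 3 settings the median over the members without a bacterial counterpart was 0.02, 0.02 and 0.006. The summed level of all 78 genes was 1590.4, 1587.9 and 1650.2 CPM in GIT1 CKO and 1625.0, 1753.9 and 1634.4 CPM in GIT1 CWT BMDMs, means of 1609 ± 35.3 and 1671 ± 71.9 (SD, n = 3). The groups overlapped, and the highest sum was that of GIT1 CWT replicate 2. The sum over the small subunit was 0.432 to 0.452 times that over the large subunit in the GIT1 CKO libraries and 0.433 to 0.444 times in the GIT1 CWT libraries, and the ranges of this ratio overlapped. A difference between the medians of the subunits was not tested.

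**Figure D4:**
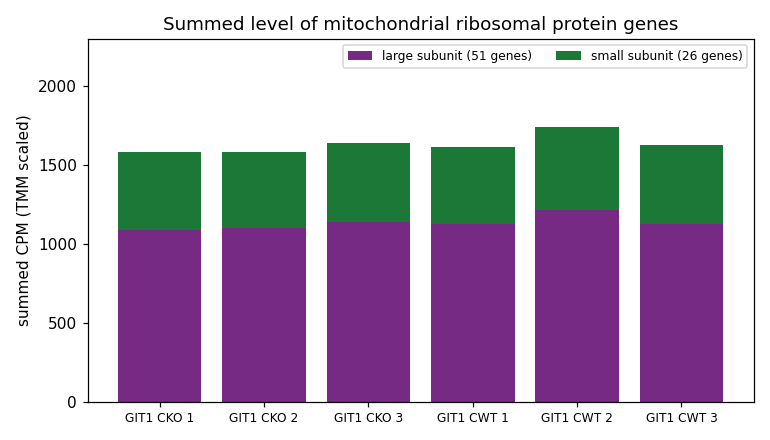
Summed CPM relative to TMM-scaled totals of the 51 genes of the large subunit and the 26 genes of the small subunit, stacked, in each of the 6 libraries. The bars of the 2 groups overlap in height, and that of GIT1 CWT replicate 2 is the tallest.

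Within the large subunit, the stalk that recruits translation factors was examined by its 5 members. Mrpl10, which anchors the stalk, was at 34.8, 34.8 and 33.8 CPM in GIT1 CKO and at 32.9, 43.9 and 37.1 CPM in GIT1 CWT BMDMs. Mrpl12, the protein that the anchor carries in several copies, was at 27.7, 27.9 and 32.1 CPM and at 25.4, 35.8 and 27.9 CPM. In both, GIT1 CWT replicate 2 was the highest of the 6 libraries and the groups overlapped, with log2 fold changes of -0.14 ± 0.128 and -0.02 ± 0.153 (SE), the latter of the other sign with total counts only. Mrpl11 and Mrpl54, which lie at the base of the stalk, had log2 fold changes of -0.18 ± 0.152 (SE) and -0.17 ± 0.203 (SE), and the highest library of each was again GIT1 CWT replicate 2, at 25.6 and 23.0 CPM. Mrpl53 had a log2 fold change of 0.40 with a standard error of 0.706, and GIT1 CWT replicate 3 held 8 counts of it. The median log2 fold change of the stalk was -0.14 with 4 of 5 members below 0, and it was 0.12 without GIT1 CWT replicate 2 and 0.03 with the GC trend removed. The median was -0.08 over the 10 members of the central protuberance, -0.07 over 6 members listed for the exit of the peptide tunnel and 0.02 over the 4 members around the entry and decoding of mRNA, and 0 members of these 3 groups had an unadjusted p under 0.05. Mrpl47 was not in the list for the tunnel exit, and with it, a choice made after its value was seen, the median over 7 members was -0.04. Without GIT1 CWT replicate 2 the medians of the 3 groups as listed were 0.03, 0.005 and 0.21, and without GIT1 CWT replicate 1 they were -0.11, -0.14 and -0.10, so the sign of each turned with 1 library. With the GC trend removed they were -0.04, 0.02 and 0.05, so that of the tunnel exit turned there as well.

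The 3 paralogs related to bacterial ribosomal protein S18 did not pass the test. Mrps18a, in the large subunit, was at 20, 23.2 and 20.6 CPM in GIT1 CKO and at 23.6, 28.1 and 24.0 CPM in GIT1 CWT BMDMs, with a log2 fold change of -0.25 ± 0.119 (SE, edgeR adjusted p = 0.333) and one of -0.14 without GIT1 CWT replicate 2. Mrps18c, at the place of S18 in the small subunit, was at 14.7, 13.0 and 15.7 CPM and at 16.3, 8.79 and 11.3 CPM, with a log2 fold change of 0.26 ± 0.231 (SE, edgeR adjusted p = 0.569). That of Mrps18c was 0.09 without GIT1 CWT replicate 2, 0.53 without GIT1 CWT replicate 1 and 0.08 with the GC trend removed. Mrps18b, elsewhere in the small subunit, was at 12.4, 10.7 and 12.3 CPM and at 9.54, 13.0 and 12.0 CPM, with one of 0.03 ± 0.152 (SE), whose sign changed with upper-quartile scaling. The groups of Mrps18b and Mrps18c overlapped, and a difference between the paralogs in their fold change was not tested.

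The libraries within a group differed more in GIT1 CWT than in GIT1 CKO BMDMs. The median coefficient of variation of the 78 genes was 5.40% in GIT1 CKO and 14.6% in GIT1 CWT BMDMs, against 7.61% and 17.7% over the 9667 genes tested whose mean CPM was in the range of the members. GIT1 CWT replicate 2 was the highest of the 6 libraries in 39 of 78 members, or 50% against 32.4% of the genes tested, and the lowest in 22, or 28.2% against 33.7%. Whether it was high or low moved with the GC content of the gene. Across the 78 members, which share the same library and are not independent, Spearman's rho between the GC content of the longest transcript and the deviation from the mean of the 6 libraries was 0.62 in GIT1 CWT replicate 2, -0.44 in GIT1 CWT replicate 1, -0.03 in GIT1 CWT replicate 3 and -0.18 to -0.22 in the GIT1 CKO libraries. The median deviation of GIT1 CWT replicate 2 was -0.11 on the log2 scale in the 26 members of lowest GC content (38.6 to 46.9%), 0.15 in the middle 26 and 0.31 in the 26 of highest GC content (52.5 to 60.4%).

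**Figure D5:**
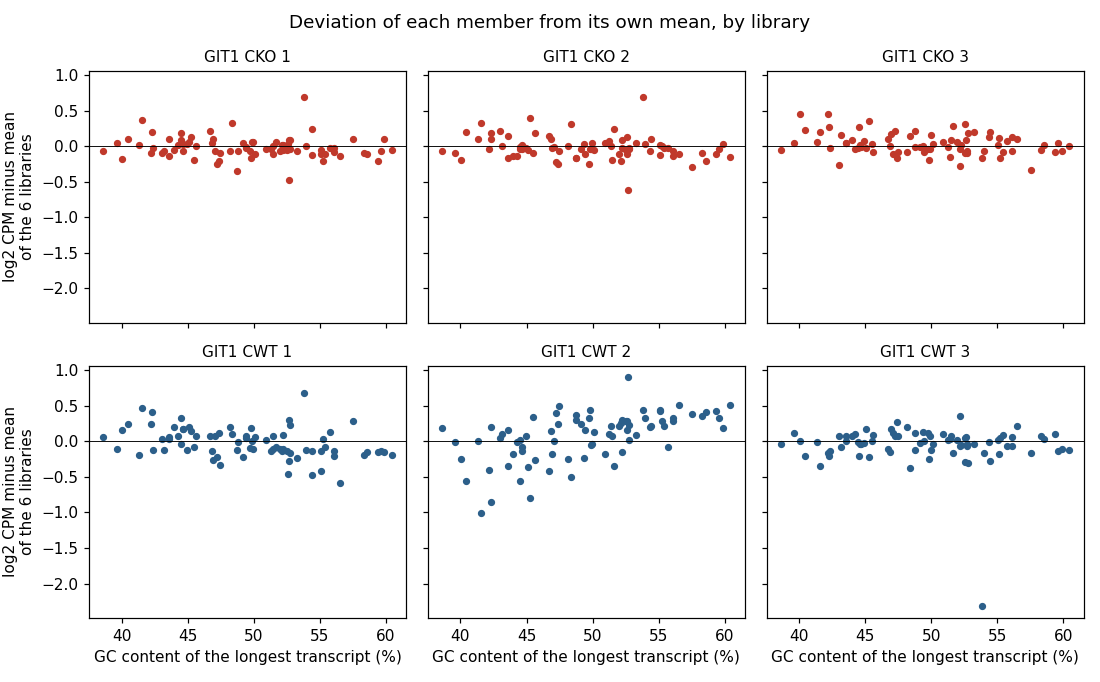
Deviation of the log2 CPM of each of the 78 genes from its mean of the 6 libraries against the GC content of its longest transcript, with a panel for each library. The points rise with GC content in GIT1 CWT replicate 2 (Spearman's rho 0.62), fall in GIT1 CWT replicate 1 (-0.44), and the low point in GIT1 CWT replicate 3 is Mrpl53.

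The fold changes of the members carried the same relation. Spearman's rho between log2 fold change and GC content was -0.33 over the 78 genes, 0.05 without GIT1 CWT replicate 2 and -0.43 without GIT1 CWT replicate 1. The members of lowest GC content had a median log2 fold change of 0.05, with 16 of 26 above 0, against 0.24 over the 5208 genes tested of the same GC content. Those of middle GC content had a median of -0.10 against -0.04 and those of highest GC content one of -0.08 against -0.16, with 18 of 26 below 0 in each. Without GIT1 CWT replicate 2 the 3 medians were 0.07, -0.0035 and 0.11. When the GC trend of each library over all genes was removed, rho over the members was 0.51, and the medians were -0.21, -0.03 and 0.07. A trend fitted to all genes thus left the members with a relation of the opposite sign. Under that setting Mrps9, whose GC content of 38.6% is the lowest of the members, met the study's threshold at -0.89 on the log2 scale (2.61% of the genes tested did so on the lower side), while it was at 26.99, 26.87 and 27.13 CPM in GIT1 CKO and at 29.5, 32.1 and 27.5 CPM in GIT1 CWT BMDMs before the removal.

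Many of these genes lie close to or across other genes. The models of 40 of the 78 members overlap another model with counts, and 32 share exon bases with one, so that reads may be assigned to either gene. Mrps25 shares 69.8% of its exon bases with Nr2c2 on the other strand, Mrps34 shares 63.4% with Mapk8ip3 on the other strand, and Mrps11 and Mrpl46 overlap each other by 173 exon bases. Over the 38 members without an overlapping model the median log2 fold change was -0.07, with 24 of 38 below 0 and only Mrps21 past the study's threshold, and it was 0.04 with 15 of 38 below 0 without GIT1 CWT replicate 2. A neighbour that starts within 1000 bases on the other strand and points away, a head-to-head pair, was found for 19 members, or 24.4%, against 11.3% of the genes tested. Among them are Mrpl43 with Twnk, the helicase of mitochondrial DNA, and Mrps12 with Sars2, the mitochondrial seryl-tRNA synthetase.

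The other parts of the machinery that makes and serves the mitochondrial ribosome also gave 0 genes called by edgeR, where 0.755% of all genes tested were called, and 0 by limma-voom. DESeq2 called 3 of them, Myc, Pprc1 and Ears2, all on the higher side, where it called 4.05% of the genes tested. At an unadjusted p under 0.05 in edgeR there were 17.5% of the genes tested. Of these lists there were 0 of 5 mitoribosomal proteins with other names, 2 of 28 assembly genes and 1 of 19 translation factors. There were also 3 of 17 synthetases, 0 of 9 genes for mitochondrial DNA and 3 of 10 transcription factors. The study's threshold was met by 1 synthetase, Ears2, and by 2 transcription factors, Myc and Pprc1, all on the higher side (6.48% of the genes tested). Of the 5 mitoribosomal proteins with other names, Aurkaip1 was at 28.9, 29.8 and 38.4 CPM in GIT1 CKO and at 29.1, 31.2 and 29.3 CPM in GIT1 CWT BMDMs, and Gadd45gip1 at 21.9, 24.3 and 25.2 CPM and at 19.7, 30.9 and 20.6 CPM. Their median log2 fold change was 0.08, and the groups of both genes overlapped. Of the 28 genes for assembly of the ribosome and modification of its RNA, 17 were below 0, with a median of -0.10. The most expressed, Rbfa, a factor for maturation of the small subunit, was at 90.8, 86.5 and 88.2 CPM and at 98.3, 125 and 112 CPM, with a log2 fold change of -0.34 ± 0.113 (SE, edgeR adjusted p = 0.213). Dhx30, a helicase of mitochondrial RNA granules, was at 36.8, 35.2 and 37.3 CPM and at 40.7, 44.6 and 42.2 CPM, with one of -0.22 ± 0.0931 (SE, edgeR adjusted p = 0.286). The groups of Rbfa and Dhx30 did not overlap, with GIT1 CKO below, as in 15.1% of the genes tested, and neither gene passed the test.

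The 19 translation factors had a median log2 fold change of 0.04. Oxa1l, which inserts newly made proteins into the inner membrane, was at 89.5, 87.5 and 81.7 CPM in GIT1 CKO and at 93.1, 129 and 101 CPM in GIT1 CWT BMDMs (-0.32 ± 0.140 on the log2 scale, edgeR adjusted p = 0.296), and Lrpprc, which stabilises mitochondrial mRNA, had a log2 fold change of 0.04 ± 0.145 (SE). The 17 mitochondrial aminoacyl-tRNA synthetases had a median of -0.02. Of these, Iars2, the isoleucyl enzyme, had a log2 fold change of -0.13 ± 0.101 (SE) and Fars2, the phenylalanyl enzyme, one of -0.35 ± 0.124 (SE, edgeR adjusted p = 0.236). The 9 genes for transcription and replication of mitochondrial DNA had a median of 0.07, with Polg, the polymerase of mitochondrial DNA, at -0.20 ± 0.117 (SE) and Tfb2m, a factor of its transcription, at 0.25 ± 0.194 (SE).

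Of the 11 transcription factors known for nuclear genes of mitochondrial proteins, 10 were tested, with a median log2 fold change of 0.06. Yy1 was at 147, 151 and 154 CPM in GIT1 CKO and at 141, 144 and 152 CPM in GIT1 CWT BMDMs, with overlapping groups. Max, the partner of Myc, was at 86.4, 86.7 and 95.6 CPM and at 109, 119 and 107 CPM (-0.32 ± 0.0946 on the log2 scale, edgeR adjusted p = 0.185). The RNAs of the mitochondrial chromosome could not be followed. All 37 of its gene models, with the 13 mRNAs and both ribosomal RNAs, are listed at 0 counts in every library. The counts are of RNA, and the proteins made by the mitochondrial ribosome were not measured here.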

How the data were processed

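Messenger RNA libraries were sequenced, and per the submitters' processing notes reads were handled with fastp 0.17.1 and HISAT2 2.1.0, and R 3.4.3 and DESeq2 1.18.1 were used. Neither the counting tool nor the build is named in the sources used here. GENCODE M21 (GRCm38) held 52403 of the gene IDs, at the same chromosome for 100.00% and the same start for 96.49%. The deposited table holds whole-number counts per gene and library, which were the input of every test. Its deposited signal columns, counts divided by 1 size factor per library, and the authors' own fold changes and p-values were not used.

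In R 4.3.3, edgeR 4.0.16 was fitted to all 6 libraries (filterByExpr with a minimum count of 10, TMM, robust quasi-likelihood F-test, no covariate), and p-values were adjusted by Benjamini-Hochberg over 16287 genes. The biological coefficient of variation common to all genes was 0.277. The p-values set the difference between the groups against the spread between libraries of the same group. Alternatives were DESeq2 1.42.0, limma-voom (limma 3.58.1), other scalings and filters, thinned counts, removal of GC or length trends by lowess with a span of 0.3, a replicate block, each library left out, and members with an overlapping model left out. RPKM used the union of exons. A count of 0 allows up to 3 counts by counting error alone.

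The members and all gene lists were chosen with earlier results of these data known. Members are named by the 5 highest and 5 lowest fold changes, the 3 highest and lowest levels per length, any call, the study's threshold, the stalk and the Mrps18 paralogs. Of other lists, the 2 most expressed genes are named. Members with an unadjusted p under 0.05 or with groups that do not overlap, those named for an overlap or a neighbour, and Mrpl47 as an addition to the tunnel exit list, were chosen after their values were seen. Promoter windows come from RefSeq (GRCm38.p6).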

Additional observations from a re-analysis of the deposited data

How the results depend on the processing

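The counts of members called were sensitive to few of the 19 alternatives. Members called higher numbered 0 to 1 with each library left out in turn and 0 under the other alternatives. The 1 was Mrps22, without GIT1 CWT replicate 1. Members called lower numbered 1 with DESeq2, 1 with the GC trend removed and 0 to 1 with each library left out, and each time the gene was Mrpl9. The adjusted p of Mrpl9 was 0.155 with the GC trend removed and the replicate block. Members past the study's threshold numbered 2 with limma-voom (Mrpl47 higher and Mrps21 lower, where 8.28% and 2.27% of the genes tested were past it), 2 with the GC trend removed (Mrps21 and Mrps9, both lower, where 2.61% of the genes tested were), 0 with the replicate block, 0 with the GC trend removed and the replicate block, and 0 to 5 with each library left out. The 5, without GIT1 CWT replicate 1, were Mrps22, Mrpl1, Mrpl47 and Mrpl50 higher, or 5.13% of the members against 13.2% of the genes tested, and Mrps21 lower, or 1.28% against 3.18%. Mrps21 was lost without GIT1 CKO replicate 1 or 2 or GIT1 CWT replicate 2. The median log2 fold change ran from -0.0720 to -0.0004 without a library left out and from -0.0724 to 0.0265 with 1 left out, the highest without GIT1 CWT replicate 2, and the cause was not tested. Same-numbered libraries of the 2 groups showed no shared deviations (Pearson's r -0.05, 0.04 and 0.01 for numbers 1, 2 and 3). Such values cannot show whether the samples were paired. With the replicate block 0 members were called, the median was -0.0222, and 1 gene of the whole table was called in place of 123. Among all genes tested, DESeq2 called 1108, edgeR called 807 with the GC trend removed, 3, 4 and 92 without GIT1 CKO replicates 1, 2 and 3 and 1159, 400 and 1 without GIT1 CWT replicates 1, 2 and 3.

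Of the 20 named members, 13 kept their sign under every alternative. Of 368 values, 340 kept sign and side of the threshold, 24 changed sign and 4 passed the threshold, and the cause was not tested. All signs that changed belonged to log2 fold changes whose 95% intervals in the comparison of all libraries included 0. Mrpl12 was at 0.0159 with total counts only, 0.0184 without a filter, 0.126 with the GC trend removed and 0.123 with the block added. Mrpl54 was at 0.0287 and 0.0332 in the last 2 settings. Mrps15 was at -0.00357 with RLE scaling, -0.0222 with upper-quartile scaling, -0.00371 with DESeq2, -0.0114 with thinned counts and -0.0139 with the length trend removed, and Mrps18b at -0.000834 with upper-quartile scaling. With each library left out in turn, Mrpl10 ran from -0.236 to 0.000934, Mrpl11 from -0.252 to 0.00653, Mrpl12 from -0.125 to 0.157, Mrpl53 from -0.0732 to 0.841, Mrpl54 from -0.298 to 0.116, Mrps15 from -0.034 to 0.0718 and Mrps18b from -0.087 to 0.153. Mrpl53 held 8 to 192 counts per library, and its interval was the widest of the members.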

Other observations

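3 genes outside the 78 are given as values, chosen after their values were seen. Myc, a transcription factor known to raise genes of ribosome and mitochondrial biogenesis, was at 6.92, 6.62 and 7.65 CPM in GIT1 CKO and at 3.71, 4.07 and 4.10 CPM in GIT1 CWT BMDMs. All GIT1 CKO libraries were above all GIT1 CWT libraries, as in 13.6% of the genes tested. The log2 fold change of Myc was 0.83 ± 0.138 (SE, edgeR adjusted p = 0.0616, and 0.0125 with the GC trend removed). Pprc1, a coactivator of NRF1, was at 19.9, 23.3 and 26.6 CPM and at 14.7, 14.5 and 16.2 CPM, with a log2 fold change of 0.62 ± 0.136 (SE, edgeR adjusted p = 0.113, and 0.04997 with the GC trend removed). Ears2, the mitochondrial glutamyl-tRNA synthetase, was at 3.64, 3.20 and 3.62 CPM and at 1.77, 1.83 and 2.11 CPM, with a log2 fold change of 0.87 ± 0.17 (SE, edgeR adjusted p = 0.0915, and 0.0246 with the GC trend removed). None of the 3 passed the threshold on adjusted p in edgeR's comparison of all 6 libraries without removal of the GC trend. All 3 met the study's own threshold there, as did 6.48% of the genes tested on the higher side. DESeq2 called all 3, and whether they bear on the genes of the mitochondrial ribosome was not tested.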
